A study of Triticum aestivum with 2 samples.

Results

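Chromosomes 5A, 5B and 5D are the homoeologous group 5 of bread wheat, and their MNase hypersensitive sites (MHSs) are described here in 2 tissues. The members are all deposited peaks placed on these 3 chromosomes, which were 43550 of 289446 seedling MHSs (15.0%) and 41917 of 277119 spikelet MHSs (15.1%). Chromosome 5A held 14704 seedling and 14097 spikelet MHSs, 5B held 14957 and 14331, and 5D held 13889 and 13489. The choice of members used chromosome names only, and no measured value of an MHS.

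The material was the wheat cultivar Chinese Spring, grown without a treatment and sampled as whole seedlings and as spikelets, which were cross-linked with formaldehyde before nuclei were prepared. The sample labels give the age of the seedlings as 10 days, the study's methods give a different age, and the methods place the spikelets at the booting stage. In MH-seq, nuclei are cut lightly with micrococcal nuclease (MNase) and the small DNA fragments set free are sequenced, which makes accessible DNA stand out as local pileups of reads. The authors merged 2 biological replicates per tissue and deposited 1 MHS list for each, so no value below has a replicate check and nothing was tested between the tissues. A whole seedling and a spikelet are mixtures of cell types, and a site open in few cells cannot be told apart from a site that is less open in all cells.

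Bread wheat is an allohexaploid whose A, B and D subgenomes came from 3 related grasses, so that most genes exist as homoeologs on corresponding chromosomes. Wheat chromosomes carry their genes mainly towards the ends of the arms, with repeat-rich DNA and little recombination around the centromere. Group 5 chromosomes have a short arm and a clearly longer long arm, and the long arms carry the vernalization gene VRN1, the domestication gene Q on 5A and the pairing locus Ph1 on 5B, while the grain Hardness locus lies on the short arm of 5D. The distal long arm of 5A is derived from an ancient exchange with chromosome 4A. Gene positions and centromere positions in the genome build of the lists (IWGSC reference sequence, version 1.0) were not analysed here, so MHSs are located by coordinate only. The build cuts each chromosome into 2 sequence parts, and positions below are either Mb from the first base of part 1, which is the short arm end, or base coordinates within a part.

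In the whole series, the recovered depth was 184.8 M reads for the seedling list and 182.3 M for the spikelet list, under the peak caller's default read extension of 200 bp. Among the other 18 chromosomes, MHS density ranged from 17.1 per Mb on 4B to 23.8 on 7D in the seedling, and from 16.1 to 23.2 on the same 2 chromosomes in the spikelet.

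MHSs were densest on 5D, and 5A and 5B could not be separated. In the seedling, 5D had 24.5 MHSs per Mb, against 20.7 on 5A and 20.98 on 5B. The spikelet values were 23.8, 19.9 and 20.1 per Mb in the same order. Density on 5D was 1.18 times that on 5A in the seedling (95% counting interval 1.16 to 1.21) and 1.20 times in the spikelet (1.17 to 1.23). Against 5B, the 5D density was 1.17 times as high in the seedling (1.14 to 1.20) and 1.19 times in the spikelet (1.16 to 1.21). The ratio of 5B to 5A was 1.01 in both tissues, with intervals of 0.990 to 1.04 and 0.989 to 1.04 that include equal density. All intervals given here cover counting error only, and neighbouring peaks are not independent.

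With these densities 5D ranked first of the 21 chromosomes in both lists, while 5B ranked 8 and 5A ranked 10 in the seedling. A high density was not particular to 5D, since the D chromosomes other than 4D took ranks 1 to 6 in both lists, with 22.1 to 24.5 MHSs per Mb in the seedling. The higher density of 5D went with its shorter sequence. It spanned 566 Mb, against 709.7 Mb for 5A and 713 Mb for 5B, and it held the fewest MHSs of the 3. The DNA covered by MHSs showed the same order, with 10.1 kb per Mb on 5D, 8.54 on 5A and 8.57 on 5B in the seedling, and 9.15, 7.55 and 7.64 kb per Mb in the spikelet.

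Single MHSs were alike on the homoeologs. The median width was 355 bp on 5A, 352 bp on 5B and 353 bp on 5D in the seedling, and 337, 335 and 337 bp in the spikelet. The fold of an MHS is the pileup of reads at its summit over the local background, each with 1 added. For 5A, 5B and 5D its median was 4.05, 4.03 and 4.03 in the seedling, while the spikelet had 4.44, 4.48 and 4.43. Local background, in reads, had a median of 5.52 on 5A, 5.54 on 5B and 5.64 on 5D in the seedling, with 5.70, 5.66 and 5.80 in the spikelet. It was slightly higher on 5D than on the other two in both lists, and whether that difference bears on the density of 5D was not tested.

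Along each chromosome, density fell from the short arm end into a trough in the first part of the chromosome and then climbed unevenly to the long arm end. The first 10 Mb of 5A held 363 seedling and 360 spikelet MHSs, those of 5B held 221 and 219, and those of 5D held 320 and 351. The fullest complete 10 Mb bin lay close to the long arm end in each case. It was 670 to 680 Mb on 5A with 398 seedling and 404 spikelet MHSs, 700 to 710 Mb on 5B with 391 and 366, and 540 to 550 Mb on 5D with 448 and 419. The emptiest bin of 5A, at 250 to 260 Mb, held 61 seedling and 28 spikelet MHSs. On 5D it was 140 to 150 Mb, with 38 and 32. On 5B the tissues differed in the emptiest bin, which was 170 to 180 Mb in the seedling with 68 MHSs and 190 to 200 Mb in the spikelet with 46.

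**Figure D1:**
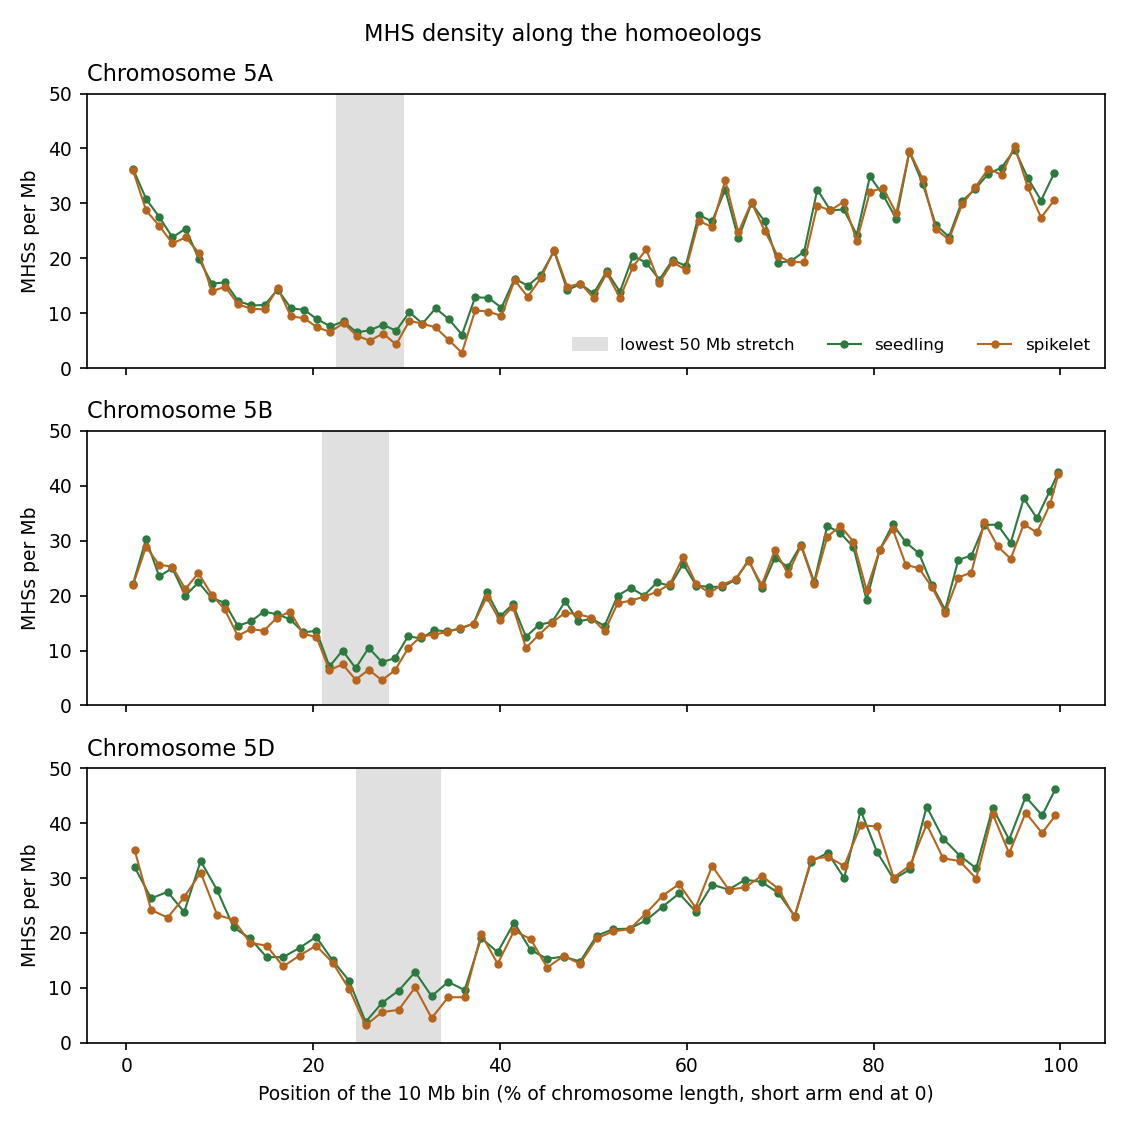
MHSs per Mb in 10 Mb bins (y axis) against the position of the bin as a percentage of chromosome length (x axis), for 5A, 5B and 5D, with seedling in green, spikelet in orange and the lowest 50 Mb stretch shaded in grey. Both tissues trace the same trough, whose lowest part lies within 20 to 40% of the length, and on 5B within 20 to 32%. The fullest complete bins, with 391 to 448 seedling MHSs, lie near the right end.

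The contrast between the fullest and the emptiest complete bin was 6.52 times on 5A, 5.75 times on 5B and 11.8 times on 5D in the seedling. In the spikelet it was 14.4, 7.96 and 13.1 times, so 5B had the flattest profile in both lists.

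The lowest 50 Mb stretch lay at 160 to 210 Mb on 5A, at 150 to 200 Mb on 5B and at 140 to 190 Mb on 5D, and both lists gave the same stretch on each homoeolog. On 5A it held 366 seedling and 297 spikelet MHSs, or 7.32 and 5.94 per Mb. On 5B it held 423 and 297, or 8.46 and 5.94 per Mb, and on 5D 420 and 294, or 8.40 and 5.88 per Mb. Despite the different chromosome-wide densities, the spikelet counts of the 3 stretches thus lay within 3 MHSs of each other. Outside the stretch, the chromosomes had 21.7, 21.9 and 26.1 seedling MHSs per Mb and 20.9, 21.2 and 25.6 spikelet MHSs per Mb. Since the stretch was picked for its low count, its density relative to the remainder is a description. That ratio was 0.337 on 5A, 0.386 on 5B and 0.322 on 5D in the seedling, with 0.284, 0.281 and 0.230 in the spikelet.

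As a share of chromosome length, the lowest stretch lay nearer to the short arm end than on any chromosome outside group 5. The middle of the lowest stretch was at 26.1% of the length on 5A, 24.5% on 5B and 29.1% on 5D. On the other 18 chromosomes it ranged from 32.6% on 1B to 52.5% on 7D, with a median of 36.5%. In Mb the stretches were not set apart, as that of 1D lay at 140 to 190 Mb and that of 4D at 160 to 210 Mb. Density on the long arm side of the stretch exceeded that on the short arm side on all 3 homoeologs. It went from 17.6 MHSs per Mb before the stretch to 23.0 after it on 5A in the seedling, from 19.2 to 22.7 on 5B and from 21.8 to 27.7 on 5D. The sequence after the stretch held 78.3% of the seedling MHSs of 5A, 77.9% of those of 5B and 75.0% of those of 5D.

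The homoeologs resembled each other in the broad shape of the profile. Across 50 bins of equal relative length, seedling densities had a Pearson correlation of 0.871 between 5A and 5B, 0.889 between 5A and 5D and 0.855 between 5B and 5D. For the spikelet these were 0.852, 0.878 and 0.841. The 2 tissues on the same homoeolog had 0.993 on 5A, 0.983 on 5B and 0.984 on 5D. Bins of 1 chromosome share a library and the common fall towards the trough, so these values describe the shape and carry no test.

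Group 5 had the smallest share of its MHSs in the chromosome ends. In the outermost 10% at either end lay 29.0% of seedling MHSs on 5A (95% Wilson interval 28.3 to 29.8), 27.1% on 5B (26.3 to 27.8) and 27.9% on 5D (27.2 to 28.7). In the spikelet the shares were 29.1%, 27.2% and 27.3%. Over all MHSs of the series, 33.6% of the seedling list and 33.5% of the spikelet list lay in the ends. The 3 homoeologs took ranks 19 to 21 of 21 in both lists, with 5B lowest, and 7B followed with 30.4% and 29.3%. Group 5 together had 28.0% and 27.9% in the ends, against 34.6% and 34.5% on the other 18 chromosomes. Their position at the bottom held for ends of 20%, while 7B moved below 5A and 5B in the spikelet for ends of 5%, with 14.6% against 15.4% on 5A and 14.9% on 5B. With only MHSs of a q of 1e-05 or lower, 5A ranked 18 in both lists.

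**Figure D2:**
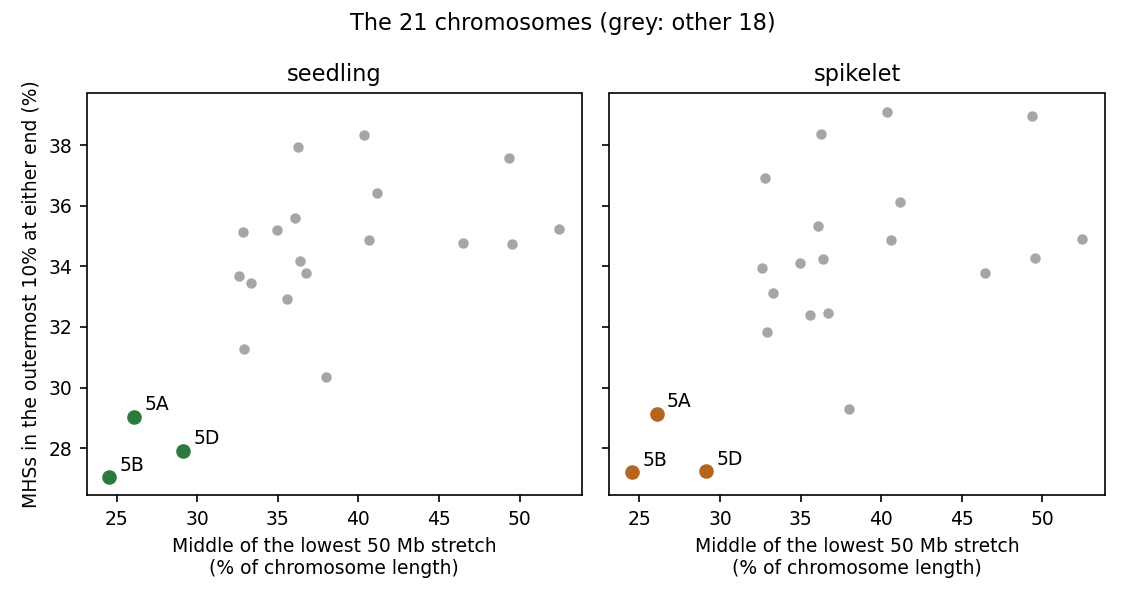
Share of MHSs in the outermost 10% of the length at either chromosome end (y axis, %, not starting at 0) against the middle of the lowest 50 Mb stretch (x axis, % of chromosome length), 1 point per chromosome, for the seedling (left) and the spikelet (right), with the other 18 chromosomes in grey. Chromosomes 5A, 5B and 5D sit at the lower left in both panels, with end shares of 27.1 to 29.1%. Their lowest stretches are centred at 24.5 to 29.1% of the length.

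The long arm end held more MHSs than the short arm end on all 3 homoeologs. The last 10% of 5A had 2469 seedling MHSs against 1802 in the first 10%, a ratio of 1.37 (counting interval 1.29 to 1.46), and 2374 against 1734 in the spikelet, also 1.37. On 5B there were 2400 against 1646 in the seedling, a ratio of 1.46 (1.37 to 1.55), and 2209 against 1690 in the spikelet, a ratio of 1.31 (1.23 to 1.39). For 5D the counts were 2287 against 1591, or 1.44 (1.35 to 1.53), and 2143 against 1533, or 1.40 (1.31 to 1.49). Per Mb, the long arm end of 5D was the densest of the 6 ends, with 40.4 seedling and 37.9 spikelet MHSs, and the short arm end of 5B was the sparsest, with 23.1 and 23.7.

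Chromosome 5A differed from the other two in how this contrast changed with the width of the ends. For the outermost 5%, the ratio on 5A was 1.11 in the seedling (1.02 to 1.21) and 1.07 in the spikelet (0.988 to 1.17), an interval that includes equal ends. On 5B the same width gave 1.50 and 1.37, and on 5D it gave 1.54 and 1.49. For the outermost 20%, 5A had the largest ratio, 1.74 and 1.79, against 1.55 and 1.46 on 5B and 1.61 and 1.60 on 5D. The first 10 Mb of 5A were dense, with 36.3 seedling MHSs per Mb, and the density then dropped to 27.5 per Mb by 20 to 30 Mb, whereas 5B began at 22.1 per Mb and its second bin was denser at 30.3. At the other end, 5A had 30.5 seedling MHSs per Mb at 690 to 700 Mb and 35.5 in its partial last bin from 700 Mb on, and 5B had 34.1 and 39.1 in the bins at 690 to 700 and 700 to 710 Mb.

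**Figure D3:**
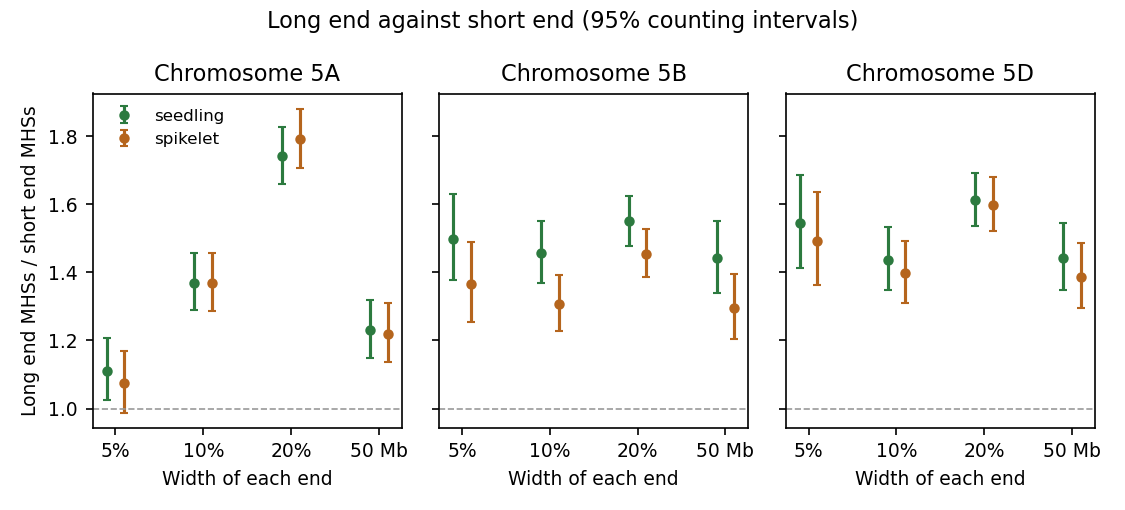
Ratio of MHSs in the long arm end to those in the short arm end (y axis, not starting at 0) for ends of 5, 10 or 20% of the length or of 50 Mb (x axis), with seedling in green, spikelet in orange, bars for 95% counting intervals and a dashed line at equal ends. All 24 ratios are above 1, and the ratios of 5A spread the most, from 1.07 to 1.79.

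Each homoeolog held fewer spikelet than seedling MHSs, with 0.959 spikelet MHSs per seedling MHS on 5A, 0.958 on 5B and 0.971 on 5D. This balance was uneven along the chromosomes. The seedling list had the larger count in 51 of 71 bins of 10 Mb on 5A, 49 of 72 on 5B and 37 of 57 on 5D, and the spikelet list in 18, 21 and 19. The lowest ratios lay in or near the trough. On 5A, 250 to 260 Mb held 61 seedling and 28 spikelet MHSs, a ratio of 0.459 (0.293 to 0.718). On 5B it was 190 to 200 Mb with 79 and 46, a ratio of 0.582 (0.405 to 0.838), and on 5D 180 to 190 Mb with 85 and 45, a ratio of 0.529 (0.369 to 0.760). The highest ratios were closer to 1 and lay on the long arm side, with 192 seedling and 216 spikelet MHSs at 390 to 400 Mb of 5A, 192 and 210 at 560 to 570 Mb of 5B, and 347 and 394 at 450 to 460 Mb of 5D.

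In the lowest 50 Mb stretch the spikelet list held 0.811 MHSs per seedling MHS on 5A, 0.702 on 5B and 0.700 on 5D. Over the 3 stretches the ratio was 0.734 (0.674 to 0.801), against 0.984 in the short arm end, 0.940 in the long arm end and 0.973 in the remaining sequence. The same direction was found on all other 18 chromosomes, where the ratio in the lowest stretch ranged from 0.569 on 1A to 0.832 on 2D. Fewer MHSs of the stretch reached a q of 1e-05 or lower, with 53.7% of seedling MHSs and 74.3% of spikelet MHSs, against 66.3% and 81.4% over all of group 5. By fold the pooled lists went different ways, since the median in the stretch was 3.95 in the seedling, against 4.08 in the remaining sequence, and 4.94 in the spikelet, against 4.47. The lower seedling fold was found on 5B (3.91 against 4.08) and 5D (3.85 against 4.09), but not on 5A (4.12 against 4.09). With the list cut at that q, the 3 stretches held 649 seedling and 660 spikelet MHSs, a ratio of 1.02, against 1.18 outside them. The stricter q raised the ratio everywhere. Relative to the sequence outside, the ratio in the stretches was 0.758 (0.694 to 0.827) with all MHSs and 0.858 (0.769 to 0.958) with the strict ones, so it stayed lower there. Median local background in the stretch was 4.44 reads for seedling MHSs and 4.31 for spikelet MHSs, below the 5.56 and 5.72 of all group 5 MHSs, and its part in the q and fold values was not tested.

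An MHS was called tissue-only when it had not even 1 bp in common with an MHS of the other list. Group 5 had 15827 seedling-only MHSs, 36.3% of its seedling list (95% Wilson interval 35.9 to 36.8), and 13591 spikelet-only MHSs, 32.4% of its spikelet list (32.0 to 32.9). Over the whole series 37.0% and 32.6% were tissue-only, so group 5 was close to the background. By homoeolog, 36.4% of seedling MHSs were seedling-only on 5A (5353), 37.0% on 5B (5529) and 35.6% on 5D (4945). Spikelet-only MHSs made up 32.0% on 5A (4504), 32.9% on 5B (4717) and 32.4% on 5D (4370). The only pairwise difference beyond counting error was the seedling-only share of 5D against 5B, at -1.36 percentage points (95% Newcombe interval -2.47 to -0.252). It was not stable. With an overlap of 50% of the peak it was -0.990 points (-2.14 to 0.156), with a reciprocal overlap of 50% it was -0.524 (-1.68 to 0.628), and at a q of 1e-05 it was -0.512 (-1.76 to 0.740). At a q of 0.01, a limit added after seeing the data, it stayed beyond counting error, at -1.20 points (-2.32 to -0.0864). With the overlap of 50% of the peak, 5D lay below 5A instead, by -1.34 points (-2.49 to -0.186). In the spikelet the same pair differed by -0.518 points (-1.62 to 0.585), and 5B exceeded 5A by 0.965 points (-0.124 to 2.05).

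Tissue-only MHSs were weaker than common ones on every homoeolog. Their median fold was 3.56, 3.54 and 3.53 in the seedling on 5A, 5B and 5D, against 4.61, 4.60 and 4.58 for common MHSs. In the spikelet it was 3.83, 3.86 and 3.80 against 4.94, 4.93 and 4.91. A weak MHS can miss the threshold of the peak caller in 1 list only, so a tissue-only call does not measure a difference in openness. When only MHSs of a q of 1e-05 or lower were kept in both lists, 26.5% of seedling MHSs and 36.7% of spikelet MHSs on group 5 were tissue-only, so the order of the tissues turned.

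Position moved the tissue-only share more than homoeolog did. In the lowest stretch 643 of 1209 seedling MHSs were seedling-only, or 53.2% (50.4 to 56.0), against 38.9% in the short arm ends, 39.5% in the long arm ends and 34.5% in the remaining sequence. The share in the stretch was 45.4% on 5A (40.3 to 50.5), 57.9% on 5B (53.2 to 62.5) and 55.2% on 5D (50.5 to 59.9), so 5A stood below the other two. For the spikelet list, 306 of 888 MHSs in the stretch were spikelet-only, or 34.5% (31.4 to 37.6), against 37.1%, 34.4% and 31.1% in the same other classes. High seedling-only shares in the lowest stretch were not particular to group 5. On the other 18 chromosomes they ranged from 49.5% on 4B to 60.9% on 1A with a median of 55.1%. The share of 5A lay below that range, and those of 5B and 5D lay within it. Over the sequence outside the stretch, the excess was 9.18 points on 5A, 21.6 on 5B and 20.2 on 5D. On the other 18 chromosomes it was 13.6 to 24.7 points.

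**Figure D4:**
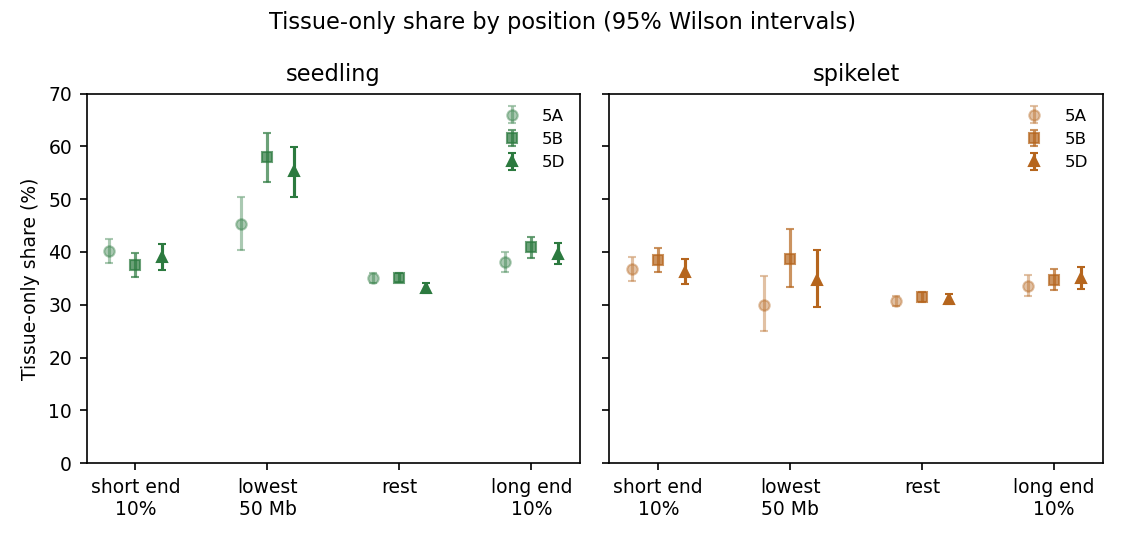
Share of MHSs that overlap no MHS of the other tissue (y axis, %) in the short arm end, the lowest 50 Mb stretch, the remaining sequence and the long arm end (x axis), for the seedling (left) and the spikelet (right), with 95% Wilson intervals and a marker per homoeolog. Seedling-only shares are highest in the lowest stretch, at 45.4% on 5A, 57.9% on 5B and 55.2% on 5D, and spikelet-only shares there are 30.0%, 38.7% and 34.7%.

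The excess in the trough was smaller among MHSs of strong q. When both lists were cut at a q of 1e-05, the seedling-only share of the 3 stretches was 31.4% (28.0 to 35.1), against 26.4% outside. The spikelet-only share was then 31.1% (27.6 to 34.7) in the stretches against 36.8% outside. A higher seedling-only share in the trough thus held under the stricter threshold by a smaller margin, and the spikelet-only share was lower there than outside.

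Bin by bin, seedling-only MHSs were the majority in 6 bins of 5A, 6 of 5B and 5 of 5D. The highest was 250 to 260 Mb of 5A, where 45 of 61 seedling MHSs were seedling-only, or 73.8% (61.6 to 83.2), while 12 of 28 spikelet MHSs were spikelet-only (42.9%). At 190 to 200 Mb of 5B, 53 of 79 were seedling-only (67.1%), and at 180 to 190 Mb of 5D, 56 of 85 (65.9%). In these 3 bins the counts at a q of 1e-05 or lower were nearly equal between the lists. They were 22 and 21 on 5A, 38 and 36 on 5B, and 30 and 30 on 5D. Group 5 outside the lowest stretches had 1.18 spikelet MHSs per seedling MHS at this q, so equal counts were still low for the spikelet. Spikelet-only MHSs exceeded 50% of their list in no bin of 5A, in the last partial bin of 5B with 50.4%, and in 140 to 150 Mb of 5D with 59.4% of 32 MHSs.

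**Figure D5:**
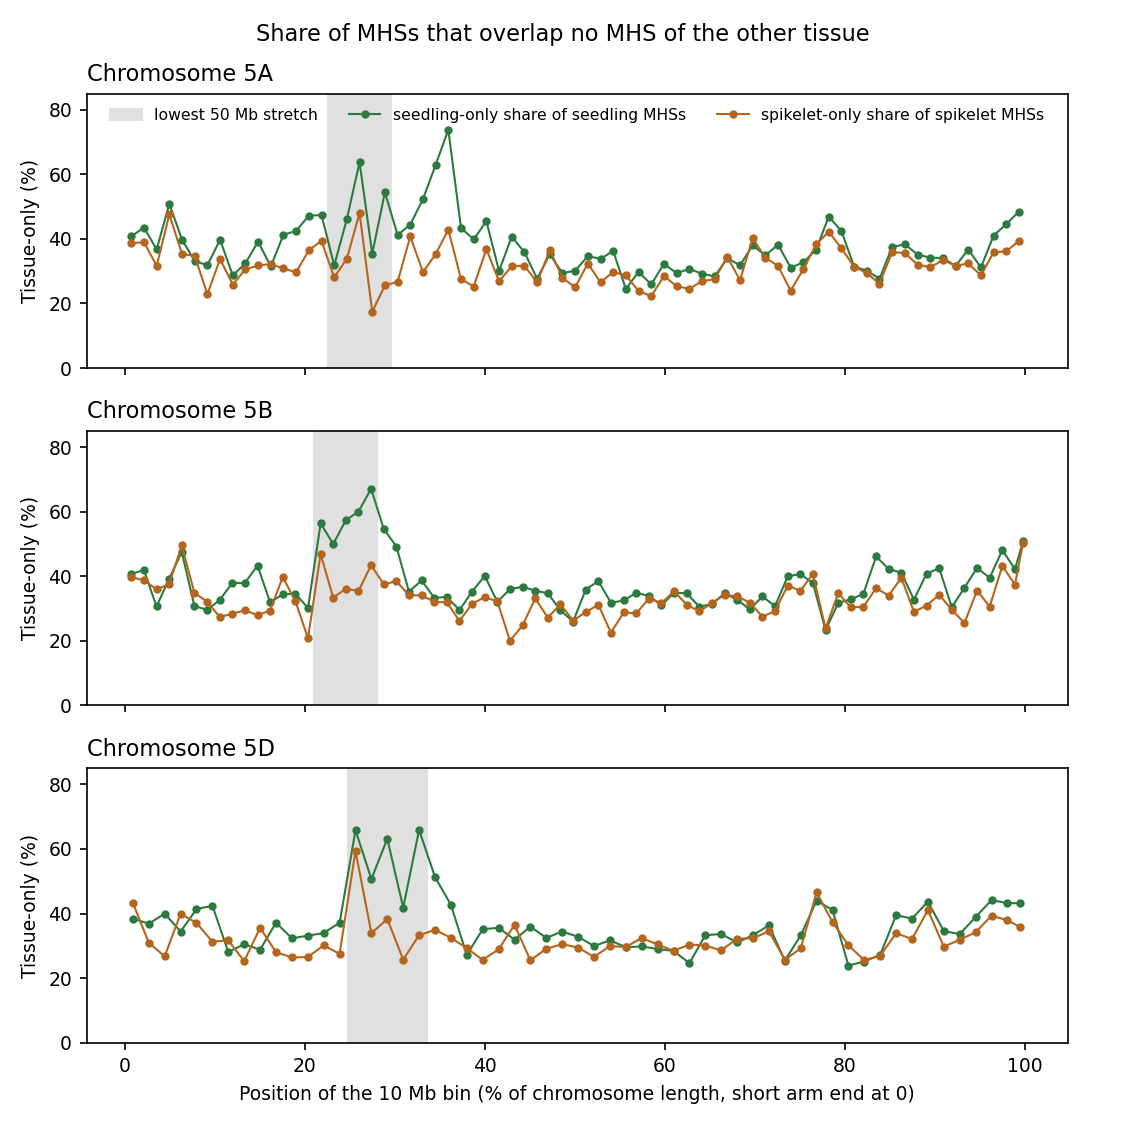
Percentage of MHSs in each 10 Mb bin that overlap no MHS of the other tissue (y axis) against the position of the bin in % of chromosome length (x axis), for seedling-only (green) and spikelet-only (orange) MHSs of 5A, 5B and 5D, with the lowest 50 Mb stretch in grey. Seedling-only shares peak inside the stretch on 5B at 67.1% and on 5D at 65.9%, and on 5A at 73.8% in the bin from 250 to 260 Mb, beyond the end of the stretch at 210 Mb.

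On the fixed grid used here, the densest 1 Mb windows lay on the distal long arms, with 1 exception. On 5A the 3 fullest windows were 688 to 689 Mb, which is 234811377 to 235811376 on part 2, with 73 seedling and 74 spikelet MHSs, 666 to 667 Mb with 71 and 73, and 631 to 632 Mb with 62 and 66. On 5B they were 659 to 660 Mb, or 207810634 to 208810633 on part 2, with 57 and 66, then 692 to 693 Mb with 63 and 59, and 706 to 707 Mb with 64 and 55. Chromosome 5D had 73 and 75 at 525 to 526 Mb, or 73108860 to 74108859 on part 2, 73 and 63 at 520 to 521 Mb, and 61 and 74 at 412 to 413 Mb, or 412000001 to 413000000 on part 1. The last of these lay at 72.9% of the length, while the other 8 windows lay between 89.0% and 99.1%. The place of the fullest window depended on the grid. With windows shifted by 500 kb it began at 523.5 Mb on 5A with 134 MHSs of both lists and at 458.5 Mb on 5D with 143. On 5B it stayed in place, beginning at 658.5 Mb with 127.

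Most MHSs of the fullest windows were common to both tissues, as were most MHSs of the whole series. There, 37.0% of seedling and 32.6% of spikelet MHSs were tissue-only. The shares in the fullest window were 37.0% and 37.8% on 5A, 17.5% and 28.8% on 5B, and 21.9% and 25.3% on 5D. In the fullest window of 5A 27 of 73 seedling MHSs were seedling-only and 28 of 74 spikelet MHSs were spikelet-only, on 5B 10 of 57 and 19 of 66, and on 5D 16 of 73 and 19 of 75. The median local background in these 3 windows was 1.27 to 1.41 times that of the seedling list and 1.28 to 1.33 times that of the spikelet list.

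Windows of 1 Mb varied widely around their medians of 36 MHSs of both lists together on 5A, 38 on 5B and 45 on 5D. The middle 50% of windows ranged from 18 to 58 on 5A, from 24 to 54 on 5B and from 28 to 65 on 5D. Windows with 100 or more MHSs numbered 20 of 709 on 5A, 9 of 712 on 5B and 23 of 566 on 5D. Windows with under 10 MHSs made up 9.31% of 5A, 6.04% of 5B and 4.24% of 5D. Chromosome 5A thus combined many full and many sparse windows, and 5B had few of the full ones.

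The longest intervals without an MHS of either list were 1664 kb on 5A, 1113 kb on 5B and 2167 kb on 5D. Only that of 5D lay in the trough, from 145555908 to 147722981 on part 1, at 25.7% of the length. The interval of 5A ran from 52926975 to 54590553 on part 2, at 71.3% of the length, and that of 5B from 172215945 to 173328606 on part 2, at 87.4%. Whether such intervals hold sequence that reads cannot map to was not tested. Between neighbouring MHSs of 1 list, the median gap was 10.0 kb on 5A, 11.3 kb on 5B and 9.69 kb on 5D in the seedling, and 8.11, 8.95 and 7.88 kb in the spikelet. The spikelet MHSs were thus packed closer at the median although fewer, and they also left more long gaps. Gaps of 1 Mb or more numbered 17 on 5A, 11 on 5B and 10 on 5D in the spikelet, against 8, 5 and 5 in the seedling.

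The longest runs of consecutive tissue-only MHSs, with no MHS of the other list between them, took different forms in the 2 tissues. The longest seedling-only runs were spread over sparse sequence. On 5A 14 seedling-only MHSs lay over 1671 kb, from 253928085 to 255599493 on part 1, and on 5D 14 lay over 1176 kb, from 185693045 to 186868714 on part 1. The longest on 5B had 9 MHSs over 1928 kb, from 328367977 to 330295823 on part 1. Their median background was 0.482 times that of the seedling list on 5A and 5D and 0.496 times on 5B. A seedling-only run of 11 MHSs on 5D was unlike these, with 121 kb from 58135088 to 58256104 on part 1 and a median background of 1.34 times that of the list.

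The longest spikelet-only runs were compact, and their local background was above the median of the list. On 5D 35 spikelet-only MHSs stood within 121 kb, from 51299985 to 51421145 on part 2, with a median fold of 2.26 and a median background of 6.33 times that of the list. A further 29 lay from 6173293 to 6271049 on part 1 with 5.11 times, 22 from 432325606 to 432436921 on part 1 with 2.48 times, and 21 from 328985816 to 329199128 on part 1 with 2.04 times. The longest spikelet-only runs of 5B and 5A were shorter. They had 13 MHSs from 127800816 to 127890529 on part 1 of 5B with 3.85 times, and 11 MHSs from 16531826 to 16619154 on part 1 of 5A with 2.16 times. Shorter spikelet-only runs lay closer to the median of the list. A run of 10 MHSs on 5D had 1.35 times, and runs of 9 MHSs had 1.73 times on 5B and 1.16 times on 5A. The part of local read depth in these runs was not tested. The 4 runs of 20 or more on 5D held 107 MHSs, or 2.45% of its spikelet-only MHSs. Without them 31.9% of the spikelet MHSs of 5D were spikelet-only and its density was 23.6 per Mb, so they did not set either value.

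For the seedling list, the 2 largest folds of each homoeolog were all in MHSs that overlapped a spikelet MHS. On 5A the largest seedling fold was 27.7, in the last MHS of the chromosome from 256542896 to 256543224 on part 2, with a pileup of 111 reads, and the overlapping spikelet MHS had a fold of 22.6. The second, with 21.6 from 338148985 to 338149559 on part 1, overlapped the top spikelet MHS of 5A, with 23.1. On 5B the largest seedling folds were 21.6, from 166327185 to 166327545 on part 2, and 18.2, from 150612050 to 150612382 on part 1, inside the lowest stretch. Their spikelet partners had 20.0 and 20.3. These 4 sites were thus strong in both tissues.

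On 5D the partners were unlike. The seedling folds of 28.6, from 240136023 to 240136393 on part 1, and of 28.3, from 60513614 to 60513979 on part 2, rested on pileups of 103 and 102 reads over the lowest background of the list, 2.64. Their spikelet partners had folds of 6.20 and 3.21 with larger pileups of 188 and 113 reads, over backgrounds of 29.5 and 34.6. At their own summits, the lower spikelet folds thus went with higher backgrounds and not with lower pileups. The first partner was 1118 bp wide, against 371 bp in the seedling. Pileups at the same base were not compared between the tissues.

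Among the 2 largest spikelet folds of each homoeolog, 4 of 6 were spikelet-only. On 5A the fold of 22.6 from 148619931 to 148620315 on part 2 lay 20.5 kb from the nearest seedling MHS. On 5B the fold of 22.7 from 371028659 to 371029022 on part 1 lay 151 kb away. On 5D the folds of 20.7 from 106059173 to 106059673 and of 19.6 from 132540065 to 132540449, both on part 1, lay 379 kb and 66.2 kb away. The pileups of these 4 MHSs ranged from 110 to 130 reads.

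MHSs with a fold of 12 or more, a threshold taken from an earlier look at these data, showed the same imbalance. Group 5 had 109 of them in the seedling, of which 1 was seedling-only, and 0.314% of such MHSs were seedling-only in the whole series. This 1 lay from 60506997 to 60507307 on part 2 of 5D, with a fold of 20.3, and was 0.611 kb from the nearest spikelet MHS. It lay close to the 5D MHS from 60513614 named above, whose spikelet partner had a background of 34.6 reads. Whether a high spikelet background bears on this seedling-only call was not tested. In the spikelet group 5 had 164, of which 52 were spikelet-only (31.7%), against 27.1% in the whole series. They were 16 of 56 on 5A, 26 of 61 on 5B and 10 of 47 on 5D. The median width of the spikelet-only ones was 373.5 bp on 5A, 355 bp on 5B and 376 bp on 5D, and that of the common ones was 484, 460 and 481 bp.

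The lowest stretch of 5B held a larger share of these strong spikelet MHSs than 5B as a whole. There were 11 among its 297 spikelet MHSs, or 3.70% (2.08 to 6.51), against 61 of 14331 on the whole of 5B, or 0.426%. On 5A 1 of 297 and on 5D 4 of 294 MHSs of the stretch reached a fold of 12. The 11 were spread from 150.6 to 198.9 Mb, and 6 of them were spikelet-only. The largest, with a fold of 24.0 and a pileup of 134 reads, ran from 159095870 to 159096300 on part 1 and overlapped a seedling MHS with a fold of 15.7 and 64 reads. The median background in the stretch was 4.28 reads, against 5.66 on 5B as a whole, and its part in these folds was not tested. This group of sites was picked out after its values were seen.

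The widest MHSs had moderate folds. On 5B the widest seedling MHS had 2620 bp, from 203669441 to 203672060 on part 2, with a fold of 4.86, and it overlapped 2 spikelet MHSs of 1444 and 251 bp. On 5D the widest were 2308 bp in the seedling, from 374659345 to 374661652 on part 1, and 2311 bp in the spikelet, from 87313076 to 87315386 on part 2, and each overlapped 2 MHSs of the other list. On 5A the widest seedling MHS had 2084 bp, from 385932877 to 385934960 on part 1, and its spikelet partner 1239 bp. The widest spikelet MHSs of 5A and 5B had 1922 bp, from 417903849 to 417905770, and 1863 bp, from 357413976 to 357415838, both on part 1.

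Where 1 seedling MHS overlapped 1 spikelet MHS and no other, the spikelet fold tended to be the larger. Group 5 had 26535 such pairs, 8930 on 5A, 9041 on 5B and 8564 on 5D. The median ratio of spikelet to seedling fold was 1.07 on each homoeolog, the middle 50% of pairs ranged from 0.878 to 1.31, and the spikelet fold was higher in 59.2% of pairs. In the lowest stretches the median ratio was 1.12 over 545 pairs, with the spikelet fold higher in 62.8%. Such pairs hold only sites that were called in both lists. The ratio therefore leaves out the many trough sites called in the seedling alone, and cannot say how strong these were in the spikelet. The summits of a pair were 53 bp apart at the median and within 50 bp in 48.7% of pairs. Fold, local background and the share of weak peaks differ between the lists, and depth differs slightly. These ratios therefore describe the 2 lists and are not a test of openness.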

How the data were processed

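Chinese Spring seedlings and spikelets were profiled by MH-seq with 2 biological replicates each. Per the study's methods, the authors used fastp for trimming, bowtie2 for alignment against the IWGSC reference (version 1.0), Sambamba for duplicate removal and a filter on mapping quality. They merged the replicates, called peaks with MACS2 and deposited 1 list per tissue. The deposited fold is the ratio of summit pileup plus 1 to local background plus 1. The deposited −log10 p and −log10 q values belong to the summit, and the deposited score is the whole part of 10 times the −log10 q. The highest deposited q-value was 0.0499 for the seedling and 0.0462 for the spikelet. Both lie above the threshold of 0.01 that the study's methods state, so the lists hold peaks beyond it. On group 5 these were 881 seedling peaks (2.02%, of which 87.6% were tissue-only) and 150 spikelet peaks (0.358%, of which 83.3% were tissue-only), and all peaks were kept. The authors' merging leaves no spread between replicates.

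Midpoints were counted in bins of 10 Mb, windows of 1 Mb and ends of 10%, with part 2 following part 1 and each part ending at its last peak. Sequence after that peak is left out, which raises densities slightly. Pileup and background were solved from fold and p alone. The depth of each list was recovered from its lowest background, assuming reads extended to 200 bp and a genome of 14 Gb. A window of 10 kb was assumed for the local background. Solved pileups were whole within 0.05 reads for 100% of peaks. Shares have 95% Wilson intervals, differences Newcombe intervals and ratios Poisson intervals. No p-value was computed, since peaks, bins and chromosomes are not replicates. Overlap, position and background steps were tested on simulated data.

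Regions named were, per homoeolog, the 2 largest folds and the widest peak of each list, the 3 densest windows, the lowest 50 Mb stretch, the longest tissue-only run of each list and the longest gap. All other runs, strong MHSs (fold of at least 12) and single bins in the text were chosen with their values in view. The members and all rules were chosen with earlier results of these data known. Alternatives covered the q threshold, the overlap, the width of ends, bins and windows. Those added after seeing the data were tissue-only shares of the stretch at a strict q and of group 5 at a q of 0.01, 5D without its long runs, and the ranks for other ends. Gene annotation, sequence and centromere positions of this build were not used here. Calculations ran in Python 3.11.15 with pandas 2.3.3, scipy 1.17.1 and numpy 2.4.6, and plots were drawn with matplotlib 3.10.9.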

Additional observations from a re-analysis of the deposited data

How the results depend on the processing

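Of 106 alternative values for the main comparisons, 72 were rated as unchanged and 34 as moved. Shares, differences and ratios were rated by the counting interval of the reported value. Starts of the lowest stretch were rated by distance, and correlations by an interval for correlations. The fullest 1 Mb windows were rated by a wider limit than a counting interval. With only MHSs of a q of 1e-05 or lower, they fell from 147 to 112 MHSs of both lists on 5A. On 5B they fell from 123 to 98 and on 5D from 148 to 117, and all were rated as unchanged. No difference beyond counting error changed its sign. Differences within it did, as the spikelet-only share of 5D minus 5A went from 0.447 points to -0.340 with a reciprocal overlap, and 5D minus 5B from -0.518 to 0.129 with an overlap of 50% and to 0.203 with a reciprocal one. The values rated as moved follow. Tissue-only shares in group 5 were 44.1% in the seedling and 37.3% in the spikelet when an overlap had to cover 50% of the peak. A reciprocal overlap of 50% gave 47.0% and 45.0%. With both lists cut at a q of 1e-05 they were 26.5% and 36.7%, so the order of the tissues turned. At a q of 0.01, a limit added after seeing the data, the seedling-only share was 35.3%. At the q of 1e-05, seedling density in the lowest stretch relative to the remainder was 0.291 on 5A, 0.321 on 5B and 0.234 on 5D, the spikelet stretch of 5B began at 160 Mb, the tissue-only shares of the stretches were 31.4% and 31.1%, and seedling end shares were 25.7% on 5B and 27.0% on 5D. Bins of 5 Mb moved the start of the spikelet stretch of 5A to 175 Mb. Ends of 20% held 49.8% and 50.5% of the MHSs of 5A in the seedling and the spikelet, 47.3% and 47.0% on 5B, and 49.8% and 49.3% on 5D. The ratio of the long to the short arm end on 5A was 1.11 and 1.07 for ends of 5%, 1.74 and 1.79 for 20%, and 1.23 and 1.22 for 50 Mb. It was 1.46 on 5B in the spikelet for 20%, and on 5D 1.54 and 1.49 for 5% and 1.61 and 1.60 for 20%. The spikelet correlation of 5B and 5D was 0.912 over 25 bins.

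No paired analysis was possible because the replicates were merged into 1 list per tissue before deposit, which also leaves no replicate to leave out. Counting intervals treat peaks as independent and miss the spread between plants. Weak peaks near the threshold of the peak caller decide many tissue-only calls, and the lists differ in the share of weak peaks. Low counts limit single bins in the trough, where the smallest bin held 28 MHSs.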
